A study of Homo sapiens with 6 samples.

Results

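The mitochondrial enzymes of the tricarboxylic acid (TCA) cycle were examined in HT29 cells after knockdown of aldolase A (ALDOA), through 9 genes chosen by symbol, namely CS, IDH2, IDH3A, OGDH, SUCLG1, SDHA, SDHB, FH and MDH2. They are 9 of 28278 genes in the count files, and all 9 passed the filter on low counts, which left 15307 genes for testing. HT29 is an established human colorectal adenocarcinoma line of epithelial morphology. The siALDOA cells received an siRNA against ALDOA (genotype ALDOA KD in the labels), the siControl cells received a scrambled siRNA (genotype WT), and RNA was taken from 3 biological replicates of each after 48 h. Because the labels name 1 siRNA for ALDOA and no untransfected group, an effect of losing ALDOA and any other effect of this siRNA cannot be told apart.

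ALDOA cleaves fructose bisphosphate in glycolysis, the pathway that delivers pyruvate to mitochondria. There pyruvate becomes acetyl-CoA, which the TCA cycle oxidises while it reduces NAD and ubiquinone for the respiratory chain and supplies citrate and other precursors for biosynthesis. Colorectal cancer cells combine active glycolysis with such use of cycle intermediates. The comparison here asks whether the mRNA of the cycle's enzymes differed between siALDOA and siControl cells.

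The knockdown and the identity of the cells were checked first. ALDOA fell from 632 ± 38.2 CPM (SD, n = 3) to 289 ± 13.7 CPM (SD, n = 3), where CPM is the counts-per-million unit, a count divided by its library size after TMM scaling, and every siALDOA library lay below every siControl library. Its log2 fold change was -1.13 (standard error 0.060, edgeR quasi-likelihood test, adjusted p = 6.95e-11). Library totals ranged from 27277538 to 33237914 counts, and ribosomal RNA genes took between 7.71% and 17.4% of them. Of 10 colon epithelial markers, 9 were tested, and LGALS4 had 0 counts in every library. Their summed level ranged from 8385 to 8619 CPM with siALDOA and from 9193 to 9658 CPM with siControl, most of it from the keratins KRT8 and KRT18. KRT18 fell by 0.28 on the log2 scale (standard error 0.072, adjusted p = 0.0152), a call that was lost with library totals only (adjusted p = 0.243) and without 4 of the 6 libraries in turn, and the part of this shift in the results below was not tested. Of 8 blood cell markers TYROBP and CD3E had 0 counts throughout, and the list summed to between 0.164 and 0.467 CPM per library. The 8 fibroblast and endothelial markers summed to between 3.08 and 4.46 CPM, with COL1A2 at 0 counts.

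None of the 9 enzymes passed an adjusted p below 0.05. Among all tested genes 9.66% did, 4.36% toward higher and 5.29% toward lower levels with siALDOA (668 and 810 genes, or 896 and 279 when scaled by library totals only). At the unadjusted P < 0.01 that the study used, 1 of the 9 passed, OGDH, toward lower levels with siALDOA, against 12.5% of the tested genes (5.72% higher and 6.74% lower). For 3 of the 9 the 2 groups held no common range of CPM, CS and FH being higher and OGDH lower, against 27.7% of the tested genes (13.1% higher and 14.6% lower). The median log2 fold change of the 9 was 0.067, with a range from -0.17 to 0.12, beside a median of 0.0016 for all tested genes. Expressed as percent change, the 95% intervals of the 9 genes all lay between -18.4% and 20.2%. In bulk RNA a lower level can mean fewer transcripts in each cell or fewer cells that make them, and these cannot be told apart.

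**Figure D1:**
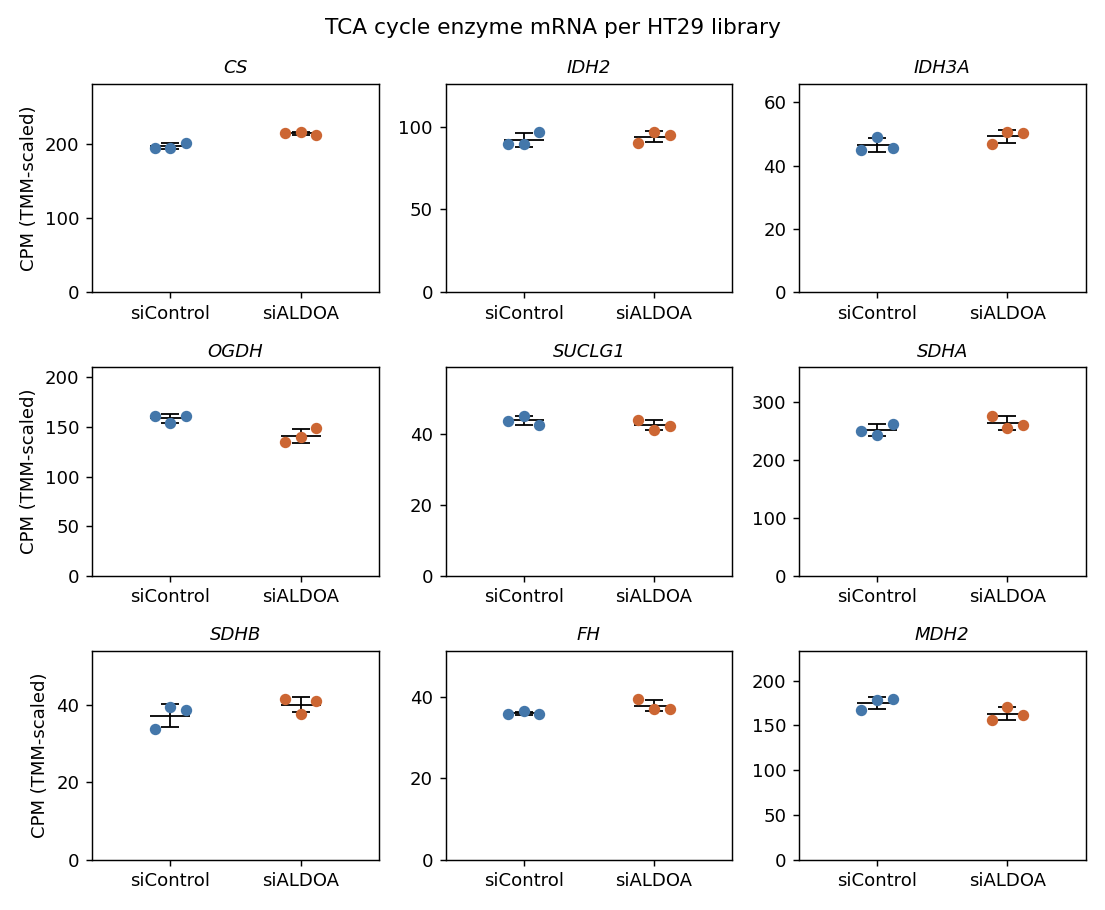
Each panel plots TMM-scaled CPM (vertical axis, from 0) of 1 enzyme in the 3 siControl (blue) and 3 siALDOA (orange) libraries, with the mean as a bar and the SD as whiskers. OGDH lies lower in all 3 siALDOA libraries (135, 140 and 148 CPM) than in siControl (154 to 161 CPM), CS and FH lie slightly higher, and the other panels overlap.

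The upstream sequences are shown for SDHA, SDHB and MDH2 as the enzymes with words bound by known activators of mitochondrial genes, other than IDH3A, whose searched window lies inside its GENCODE gene. NRF1 and GABPA, an ETS family factor, are transcription factors that drive many nuclear genes for mitochondrial proteins. The word for NRF1 (GCGCA, any base, then GCGC) and the word CCGGAAG (ETS) were searched on both strands in the 250 bases before the RefSeq start (build GRCh38.p14), and promoters were found for 8 of the 9 enzymes, OGDH being the one without an entry. The windows of IDH2 and SUCLG1, like that of IDH3A, lie inside their GENCODE genes. For these genes the bases before the GENCODE gene start were not searched. The NRF1 word was in 2 of the 8 windows, those of SDHA and IDH3A, against 5.07% of 35116 promoters. The ETS word was in 2 of the 8, SDHB and MDH2, against 8.52% of the same promoters. The words do not overlap each other, and a match is a description of letters and not of binding. In the sequences, written 5′ to 3′ on the gene's strand, capitals mark these words. SDHA (chr5:218070-218319, plus strand) held the NRF1 word 4 times, at 166, 117, 68 and 19 bases before the RefSeq start. The last of them crosses the GENCODE gene start at 218303. SDHB (chr1:17054033-17054282, minus strand) held 1 ETS word, and MDH2 (chr7:76047856-76048050, plus strand, shown up to the GENCODE gene start) held 2.
SDHA: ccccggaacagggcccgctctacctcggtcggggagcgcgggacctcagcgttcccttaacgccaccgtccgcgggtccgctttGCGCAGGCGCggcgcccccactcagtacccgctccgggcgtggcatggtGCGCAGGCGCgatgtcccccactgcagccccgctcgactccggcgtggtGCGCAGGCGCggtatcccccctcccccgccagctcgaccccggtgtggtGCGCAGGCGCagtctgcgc
SDHB: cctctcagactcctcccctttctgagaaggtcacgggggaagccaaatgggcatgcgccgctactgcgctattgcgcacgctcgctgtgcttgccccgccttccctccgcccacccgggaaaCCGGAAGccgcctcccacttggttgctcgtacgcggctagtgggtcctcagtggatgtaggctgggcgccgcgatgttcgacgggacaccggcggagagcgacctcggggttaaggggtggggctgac
MDH2: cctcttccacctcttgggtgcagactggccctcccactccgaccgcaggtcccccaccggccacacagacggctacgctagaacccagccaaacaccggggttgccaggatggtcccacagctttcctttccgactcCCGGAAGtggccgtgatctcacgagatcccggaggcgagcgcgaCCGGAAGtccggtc

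Neither these 3 genes nor the factors themselves passed the test. The log2 fold change was 0.067 for SDHA, 0.10 for SDHB and -0.10 for MDH2. NRF1 was at -0.057 (standard error 0.10, adjusted p = 0.794, edgeR) and GABPA at 0.025 (standard error 0.075, adjusted p = 0.882, edgeR).

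The cycle is described in the order of its reactions, starting with citrate synthase. CS (ENSG00000062485, chromosome 12 of hg38, 56271699 to 56300391) encodes the enzyme that joins acetyl-CoA to oxaloacetate. It was at 214, 217 and 212 CPM in the siALDOA libraries and at 194, 195 and 202 CPM in the siControl libraries. The groups did not overlap, and the siALDOA libraries were the higher ones. The log2 fold change was 0.12 (standard error 0.054, 95% interval 0.0083 to 0.23), with an unadjusted p = 0.0366 and an adjusted p = 0.177 in edgeR's test, so CS did not pass. It had the highest log2 fold change of the 9 and stayed between 0.11 and 0.19 under 15 alternative settings, none of which took it past the threshold. In GENCODE a read-through gene on the same strand, ENSG00000144785, overlaps CS over 14476 bases, so reads could belong to either.

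Isocitrate is oxidised in mitochondria by 2 kinds of enzyme, the NADP-linked IDH2 and the NAD-linked IDH3 complex, whose catalytic subunit is IDH3A. IDH2 (ENSG00000182054, chromosome 15, 90083045 to 90102477) was at 90.2, 97.1 and 95.1 CPM with siALDOA and at 89.7, 89.5 and 97.0 CPM with siControl. Its groups overlapped, and they differed by 0.032 on the log2 scale (standard error 0.061, 95% interval -0.096 to 0.16). IDH3A (ENSG00000166411, chromosome 15, 78131498 to 78171945) was at 46.8, 50.7 and 50.3 CPM with siALDOA and at 45.0, 48.9 and 45.6 CPM with siControl. The groups overlapped through siControl replicate 2, and the log2 fold change was 0.083 (standard error 0.068, 95% interval -0.060 to 0.23). ACSBG1, on the opposite strand, overlaps the IDH3A gene over 4478 bases and had from 769 to 938 counts per library, and the strand setting of the counting is not given in the sources used here.

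OGDH was the enzyme nearest to the threshold. It encodes the first subunit of the 2-oxoglutarate dehydrogenase complex, which turns 2-oxoglutarate into succinyl-CoA and is a control point of the cycle. OGDH (ENSG00000105953, chromosome 7, 44606572 to 44709066) was at 135, 140 and 148 CPM in the siALDOA libraries and at 161, 154 and 161 CPM in the siControl libraries. All 3 siALDOA values lay below all 3 siControl values, and means were 141 ± 6.96 CPM (SD, n = 3) and 159 ± 4.35 CPM (SD, n = 3). The log2 fold change was -0.17 (standard error 0.058, 95% interval -0.29 to -0.050), a difference of -11.2%, with an unadjusted p = 0.00817 and an adjusted p = 0.0707 in edgeR's test. DESeq2 placed the same gene past the threshold (adjusted p = 0.0399), while scaling by library totals only gave -0.098 with an adjusted p of 0.538. Over all 15 alternative settings the value ranged from -0.21 to -0.098, and the adjusted p from 0.0273 to 0.538. The unadjusted p stayed below 0.01 in the fit without siALDOA replicate 3 and in no other fit that left out a library.

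Succinyl-CoA ligase makes GTP or ATP from succinyl-CoA, and SUCLG1 encodes its shared alpha subunit. SUCLG1 (ENSG00000163541, chromosome 2, 84423528 to 84460045) was at 43.9, 41.1 and 42.1 CPM with siALDOA and at 43.6, 45.1 and 42.4 CPM with siControl. The groups overlapped, and the log2 fold change of -0.045 (standard error 0.068, 95% interval -0.19 to 0.098) became 0.028 with library totals only.

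Succinate dehydrogenase is both a cycle enzyme and complex II of the respiratory chain, with SDHA as its flavoprotein and SDHB as its iron-sulphur subunit. SDHA (ENSG00000073578, chromosome 5, 218303 to 257082) was at 277, 255 and 260 CPM with siALDOA and at 249, 243 and 263 CPM with siControl. SDHB (ENSG00000117118, chromosome 1, 17018664 to 17054032) was at 41.5, 37.8 and 41.0 CPM with siALDOA and at 33.9, 39.4 and 38.6 CPM with siControl. Both genes overlapped between groups, and siControl replicate 1 was the lowest library for SDHB. The log2 fold change was 0.067 for SDHA (standard error 0.057, 95% interval -0.051 to 0.19) and 0.10 for SDHB (standard error 0.077, 95% interval -0.057 to 0.27). In GENCODE the gene ENSG00000286001 on the same strand overlaps SDHA over 38780 bases, its whole length, so reads could belong to either. SDHA also has near-identical pseudogenes, and how the counting treated reads with several matches is not given in the sources used here. SDHAP1, SDHAP2 and SDHAP3 together held from 13.0% to 15.8% as many counts as SDHA, and none of the 3 passed the test, with log2 fold changes of 0.21, 0.10 and 0.24.

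The last steps are hydration of fumarate by fumarase and oxidation of malate by malate dehydrogenase. FH (ENSG00000091483, chromosome 1, 241497511 to 241519799), the fumarase gene, was at 39.4, 37.1 and 37.1 CPM with siALDOA and at 35.9, 36.5 and 35.8 CPM with siControl. The siALDOA libraries were all above the siControl libraries, by a margin of less than 1 CPM, and the log2 fold change was 0.071 (standard error 0.071, 95% interval -0.077 to 0.22). MDH2 (ENSG00000146701, chromosome 7, 76048051 to 76067508), the mitochondrial malate dehydrogenase, was at 156, 171 and 162 CPM with siALDOA and at 167, 179 and 179 CPM with siControl. The groups overlapped through siALDOA replicate 2, and the log2 fold change was -0.10 (standard error 0.058, 95% interval -0.22 to 0.020). Adjusted p-values in edgeR's test were 0.605 for FH, 0.309 for MDH2, 0.522 for SDHA, 0.456 for SDHB, 0.509 for IDH3A, 0.749 for SUCLG1 and 0.804 for IDH2.

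**Figure D2:**
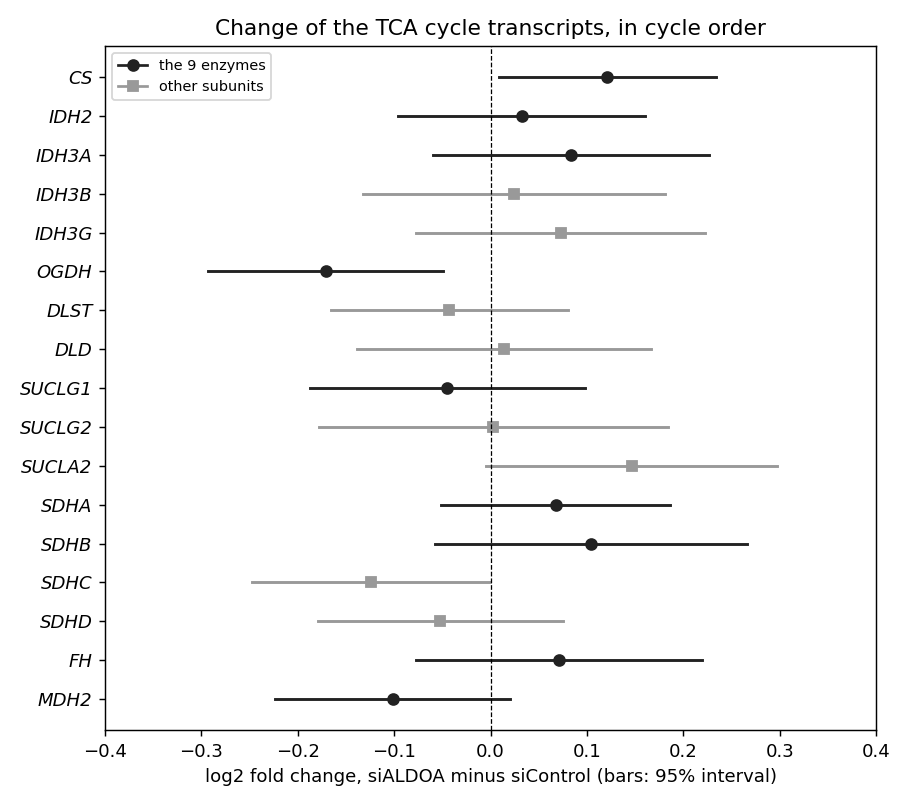
Log2 fold change (horizontal axis, siALDOA minus siControl) with 95% intervals for TCA cycle transcripts listed in cycle order, the 9 enzymes as black circles and 8 other subunits as grey squares. OGDH at -0.17 lies farthest to the left and SUCLA2 at 0.15 farthest to the right, and most intervals cross 0.

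The remaining subunits of the cycle gave a like picture. Of 10 such genes 9 were tested, none passed an adjusted p below 0.05, and their median log2 fold change was 0.014. SDHC, a membrane anchor of succinate dehydrogenase, was at -0.12 on the log2 scale (standard error 0.059, adjusted p = 0.209, edgeR), and SUCLA2, the ATP-forming partner of SUCLG1, was at 0.15 (standard error 0.072, adjusted p = 0.229, edgeR). OGDHL, an OGDH-like gene, was under the filter on low counts.

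The ratio of 2 transcripts within each library does not depend on library scaling, and 9 such ratios of length-scaled levels were computed. In 3 of the 9 the groups did not overlap. By CPM 27.7% of single genes did not overlap, which is another measure, and no share over other ratios was computed. OGDH to DLST, the first and second subunits of the same complex, was 1.18, 1.19 and 1.25 with siALDOA and 1.33, 1.28 and 1.35 with siControl. SUCLG1 to SUCLA2 was 1.74, 1.70 and 1.71 with siALDOA and 1.93, 1.93 and 2.03 with siControl. MDH2 to its cytosolic counterpart MDH1 was 1.31, 1.55 and 1.39 with siALDOA and 1.58, 1.64 and 1.69 with siControl. All 3 ratios were lower in every siALDOA library than in any siControl library, and they are given as a description, since an exact permutation test of 3 libraries against 3 cannot go below p = 0.1. The other ratios overlapped, among them SDHA to SDHB (2.48 ± 0.0845 with siALDOA and 2.56 ± 0.225 with siControl, SD, n = 3) and IDH2 to IDH3A (2.94 ± 0.0255 and 3.05 ± 0.227, SD, n = 3).

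Levels were compared between genes as RPKM, the CPM per kilobase of the Ensembl canonical transcript. Over the 6 libraries the mean was 95.7 RPKM for SDHA, 77.9 RPKM for MDH2, 70.5 RPKM for CS, 38.1 RPKM for SDHB, 35.7 RPKM for OGDH, 35.0 RPKM for IDH2, 33.9 RPKM for SUCLG1, 20.6 RPKM for FH and 11.7 RPKM for IDH3A. SDHA lay above MDH2 in every library, while the ranges of MDH2 (72.1 to 82.5 RPKM) and CS (66.7 to 74.3 RPKM) overlapped over the 6 libraries. Within siControl MDH2 lay above CS without overlap, and within siALDOA they overlapped. Over the 6 libraries the ranges of neighbours among SDHB, OGDH, IDH2 and SUCLG1 overlapped too, and FH and IDH3A lay apart below them. The place of OGDH among these 4 genes differed by group. In siControl OGDH was at 38.4, 36.7 and 38.5 RPKM, above every value of IDH2 (33.7 to 36.5 RPKM) and SUCLG1 (33.4 to 35.5 RPKM) and overlapping SDHB. In siALDOA OGDH was at 32.1, 33.3 and 35.4 RPKM, below every value of SDHB (37.2 to 40.8 RPKM) and overlapping IDH2 and SUCLG1. The order rests on the transcript length used. With the union of all annotated exons MDH2 ranked highest at 46.4 RPKM and SDHA came after IDH2 and CS, to 29.6 RPKM, and IDH3A and FH changed places at the bottom. The 4 genes in the middle then spread out, at 33.4 RPKM for IDH2, 28.8 RPKM for OGDH, 15.8 RPKM for SDHB and 10.3 RPKM for SUCLG1, so the place of OGDH above IDH2 in siControl was seen with the canonical lengths and not with the union lengths. SDHA made up 23.2% ± 0.916 (SD, n = 3) of the summed RPKM of the 9 with siALDOA and 22.4% ± 0.653 (SD, n = 3) with siControl. For OGDH the share was 7.97% ± 0.407 (SD, n = 3) and 9.08% ± 0.321 (SD, n = 3). The summed level of the 9 was 1044, 1045 and 1047 CPM in the siALDOA libraries and 1020, 1030 and 1064 CPM in the siControl libraries, which overlapped.

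**Figure D3:**
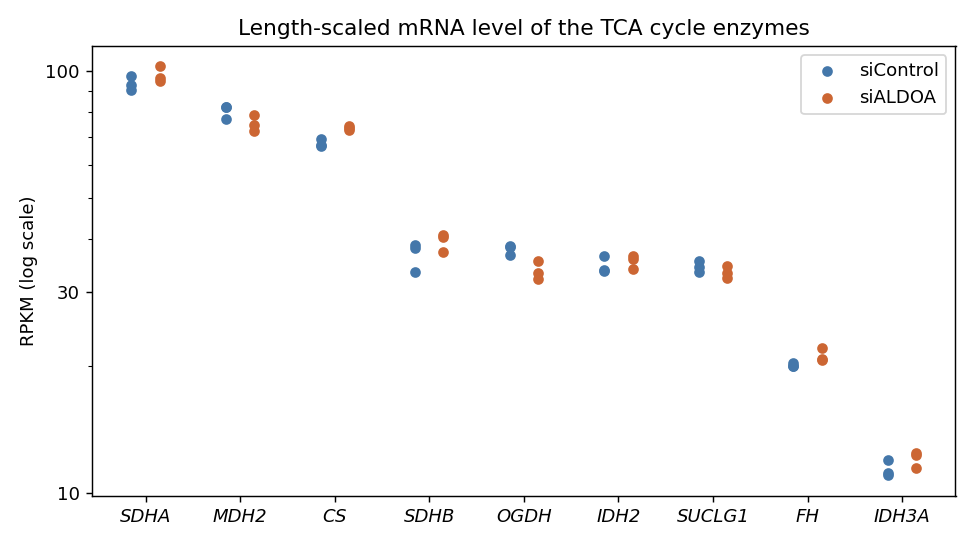
RPKM on a log axis for the 9 enzymes, ordered by mean, with 3 siControl (blue) and 3 siALDOA (orange) libraries each. SDHA, MDH2 and CS form an upper group above 66 RPKM, SDHB, OGDH, IDH2 and SUCLG1 lie together near 35 RPKM, and FH and IDH3A lie below, an order that rests on the canonical transcript lengths.

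Around the cycle, 2 genes passed the test among 36 tested in 5 lists, a share below the 9.66% of all tested genes. SLC25A1, the carrier that exports citrate from mitochondria, rose from 189 ± 5.13 CPM (SD, n = 3) to 219 ± 6.37 CPM (SD, n = 3) and was the only one of 7 mitochondrial carriers to pass. It was at 220, 226 and 213 CPM with siALDOA and at 194, 189 and 184 CPM with siControl, so that the groups did not overlap. Its log2 fold change was 0.21 (standard error 0.055, adjusted p = 0.0160, edgeR), and the call was lost when siALDOA replicate 2 (adjusted p = 0.0859), siControl replicate 2 (0.0682) or siControl replicate 3 (0.118) was left out. MPC1 and MPC2, which form the pyruvate carrier, were at 0.020 (standard error 0.099) and 0.093 (standard error 0.080) on the log2 scale.

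PPARGC1B, a coactivator of mitochondrial gene expression, was the other. It fell by 0.43 on the log2 scale (standard error 0.10, adjusted p = 0.0116, edgeR), from 26.0, 20.0 and 23.2 CPM in siControl to 15.8, 17.3 and 18.4 CPM in siALDOA, with no overlap. The adjusted p was 0.0544 with library totals only and 0.0669 without siControl replicate 1. Of 8 such regulators it was the only one to pass, and ESRRA, a nuclear receptor that works with such coactivators, was at -0.0034 (standard error 0.062). The related PPARGC1A had 62 counts in siALDOA replicate 1 and between 10 and 21 counts in each of the other 5 libraries, and it did not pass (adjusted p = 0.171, edgeR).

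The other 3 lists had no gene past the threshold in either direction. Among 6 cytosolic counterparts of cycle enzymes, ME1, the cytosolic malic enzyme, had the smallest p, at 0.21 on the log2 scale (standard error 0.070, adjusted p = 0.0601, edgeR). IDH1 of the same list went the other way, at -0.17 (standard error 0.058, adjusted p = 0.0634, edgeR). Of 8 tested enzymes that feed or drain the cycle, GLUD1, which makes 2-oxoglutarate from glutamate, had the smallest p, at -0.17 (standard error 0.057, adjusted p = 0.0770, edgeR). PCK2 of this list had 0 counts in every library and CPS1 was under the filter. Of 7 genes for assembly of succinate dehydrogenase and attachment of lipoate, the cofactor of the 2-oxoglutarate dehydrogenase complex, LIPT2 was at 0.34 (standard error 0.11, adjusted p = 0.0529, edgeR). The list medians were -0.0065, 0.0058 and 0.12 in this order. The last is the value of LIPT1, which had from 89 to 164 counts per library and a standard error of 0.21. The mRNAs encoded by mitochondrial DNA were not analysed here.

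**Figure D4:**
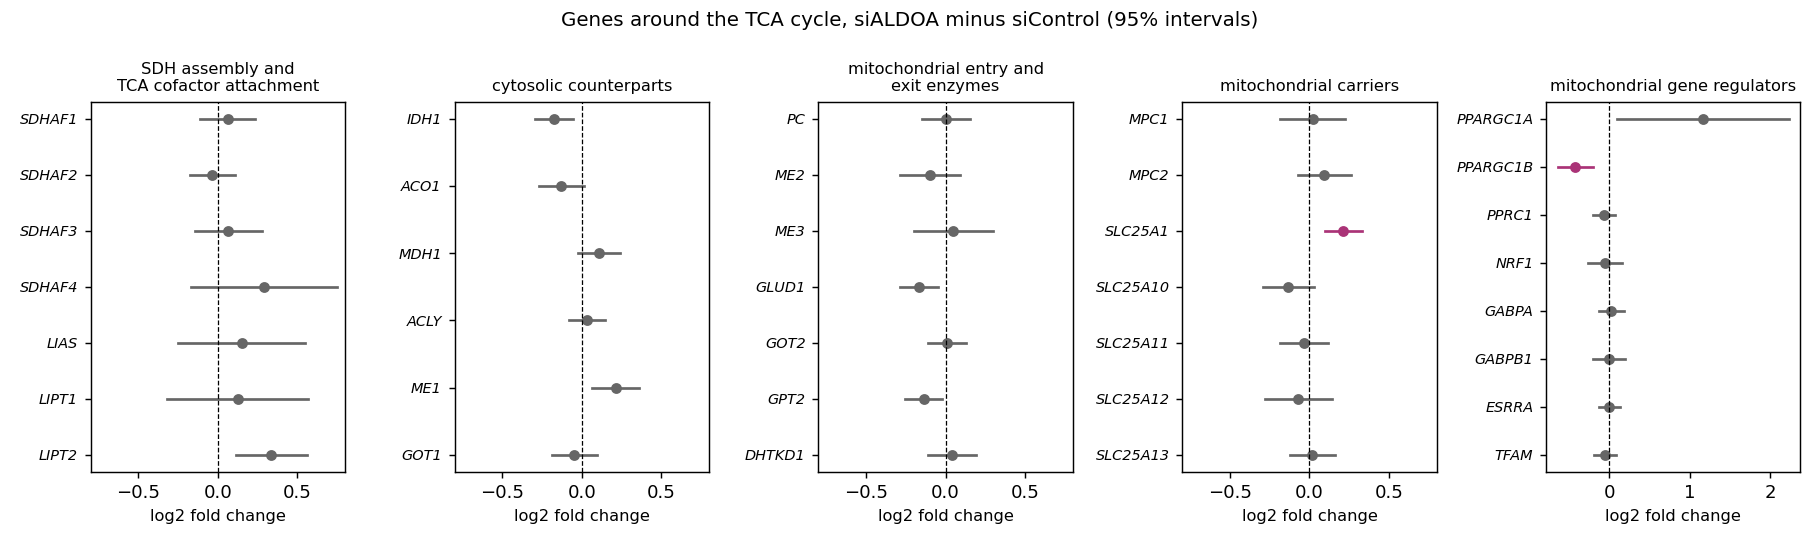
Log2 fold change (horizontal axes, siALDOA minus siControl) with 95% intervals for tested genes of 5 lists around the TCA cycle, in purple where the adjusted p was below 0.05, with a wider axis in the last panel. SLC25A1 at 0.21 and PPARGC1B at -0.43 are the purple genes.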

How the data were processed

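RNA-Seq of HT29 cells was analysed in 6 libraries, 3 siALDOA and 3 siControl. Raw counts per gene symbol, not normalized, were deposited by the authors, who used TopHat2 (hg38) and gfold. The annotation, the strand setting and the treatment of multiply matching reads are not given in the sources used here. In every library identical counts were seen for the ribosomal genes RNA18SN1 to RNA18SN4.

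Counts were tested in R 4.3.3 with edgeR 4.0.16 (filterByExpr, TMM, quasi-likelihood F-test, Benjamini-Hochberg adjustment over 15307 genes, threshold 0.05). Standard errors are the log2 fold change over the square root of F, and 95% intervals are per gene and unadjusted. The method was tested on simulated data. Lengths and positions came from GENCODE release 44, and promoters from RefSeq. Figures were drawn with matplotlib 3.10.9.

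Alternatives were limma-voom (limma 3.58.1), DESeq2 1.42.0, 4 other scalings, 2 other filters, a replicate block and leaving out each library. Enzymes and lists were chosen with earlier results of these data known. Named genes were the 9 enzymes, ALDOA, the SDHA pseudogenes, genes past the threshold and the smallest p in each list (with 2 genes of the lists not reported here), and the 5 genes closest in profile. Others are named where a ratio, a zero count or a role made them relevant, chosen after their values were seen. The main test did not pair libraries by replicate number, and whether equal numbers belong together is not known. The labels call the replicates biological and do not say whether cultures were separate, so p-values measure only the spread between these libraries. The counts behind the enzymes ranged from 1055 to 8651 per library.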

Additional observations from a re-analysis of the deposited data

How the results depend on the processing

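None of the 9 enzymes was called higher under any of the 15 alternatives, and 1, OGDH, was called lower with DESeq2 and with the replicate block, and 0 in the others. The median log2 fold change of the 9 was 0.14 with library totals only, where the median of all tested genes was 0.075, and from 0.039 to 0.069 with 1 library left out. Library totals only gave 896 higher and 279 lower genes in place of 668 and 810, the replicate block gave 987 and 1175, and fits without 1 library gave from 359 to 644 higher and from 471 to 790 lower genes, with 359 and 490 without siControl replicate 2 and 363 and 471 without siControl replicate 3.

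For the list of succinate dehydrogenase assembly and lipoate genes, 1 was called higher (LIPT2) with DESeq2, library totals with or without ribosomal RNA genes, upper quartile factors and the replicate block, and from 0 to 1 with 1 library left out. Among cytosolic counterparts, 1 was called higher (ME1) with DESeq2, library totals only, no filter and the block, and 1 lower (IDH1) with limma-voom, DESeq2, no filter and the block, or from 0 to 1 with 1 library left out. Among entry and exit enzymes, 1 was called lower (GLUD1) with DESeq2 and the block, and 1 higher with the block. The block also called 1 other subunit higher. The carriers had from 0 to 1 higher genes and the regulators from 0 to 1 lower genes with 1 library left out, and the regulators had 0 with library totals only. The cause of these shifts was not tested.

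Libraries with the same number correlated by 0.035, 0.027 and 0.026 in their deviations from the group means. Libraries with different numbers were not compared in this way, so these values cannot decide whether equal numbers belong together. The replicate block (OGDH adjusted p = 0.0273, edgeR) is therefore given as an alternative and not as the main test. With 3 libraries per group, the main test did not call OGDH at -11.2% and called SLC25A1 at 16.0%. Differences near 10% in these enzymes could therefore go uncalled.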

Other observations

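The 5 genes outside the lists whose centred log2 CPM over the 6 libraries lay closest to the mean of the 9 enzymes were DDX17, COMMD2, SLC30A9, BLCAP and BAX. Their root mean square differences from that mean were between 0.010 and 0.016 on the log2 scale. Those of the 9 enzymes ranged from 0.044 for FH and IDH2 to 0.11 for OGDH. DDX17 encodes an RNA helicase, SLC30A9 a zinc transporter and BAX an apoptosis effector. The genes were picked for this closeness, and the mean itself varied little over the libraries, so the small differences follow from the choice.

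Values were centred on each enzyme's own mean over the 6 libraries. By that measure 7 of the 9 enzymes lay below their mean in siControl replicate 1, and 3 or 4 did in each of the other 5 libraries. Ribosomal RNA genes took 17.4% of the counts in siControl replicate 1, the highest share of the 6, and their part in this was not tested.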
